A study of Mus musculus with 22 samples.

Results

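Cytosolic ribosomal proteins build the small and the large subunit of the ribosome, together with ribosomal RNA. Their genes are transcribed in nearly all cells, and their mRNAs start with a pyrimidine tract (the 5′ terminal oligopyrimidine, or TOP, motif) through which mTORC1 signalling and the RNA-binding protein Larp1 control their translation. Growth and immune activation place new demands on this machinery, and bacterial lipopolysaccharide (LPS), which macrophages sense through Toll-like receptor 4, drives a large transcriptional response in these cells. Lactic acid (LA) acidifies the medium and supplies lactate, and hydrochloric acid (HCl) is used to acidify without lactate.

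The genes described here are the 87 rows, of 16059 in the expression table, whose symbol is that of a cytosolic ribosomal protein (Rpl or Rps followed by a digit, or Rplp0, Rplp1, Rplp2 or Rpsa), leaving out the S6 kinases and the names that contain -ps. They comprise 31 small subunit genes, 43 large subunit genes, the 3 stalk genes Rplp0, Rplp1 and Rplp2, 8 paralogs of these genes, and 2 genes named after a ribosomal protein that have another role (Rpl7l1, a paralog of Rpl7 found on precursors of the large subunit, and Rps19bp1, a partner of Rps19 and of the deacetylase Sirt1). Of the 87 genes, 83 passed the filter on low counts. The 4 others are paralogs with few counts over all libraries together: 45 for Rpl39l, 11 for Rpl3l, 10 for Rps27rt and 2 for Rpl32l.

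RNA was sequenced from bone marrow-derived macrophages, which are marrow cells of C57/BL6 mice grown for 7 days in medium conditioned by L929 cells. There were 5 groups of 2 libraries: LPS with lactic acid (LPS+LA; 100 ng/ml LPS and 10 mM LA), LPS with hydrochloric acid (LPS+HCl; the labels give pH 6.5 as an example), LPS alone (100 ng/ml), LA alone (its dose is not stated separately), and untreated cells (control). Treatment lasted 3 hours. ATAC-seq, which marks open chromatin, covered 3 samples each of LPS+LA, LPS, LA and control cells. The labels do not say whether replicates came from separate animals or cultures, so every p-value here reflects the spread between 2 libraries a group, which may be technical.

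Each RNA library held between 18668648 and 20219888 counts. The 8 macrophage markers checked were present in every library, at a summed level between 13181 and 18968 CPM (counts scaled to library size). The 10 neuron markers summed to 25.6 CPM in LPS+HCl replicate 2 and 13.5 CPM in control replicate 1, and to at most 5.29 CPM in the other libraries. The 4 glia markers summed to between 26.7 and 61.3 CPM. The count of genes called in LPS+LA against LPS+HCl is given with and without the 2 libraries with more neuron transcripts. For other results that rest on these libraries, values without them are given only in part.

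Because these genes are thought to share control at their start, the promoter sequence around the start of 6 of them is shown, from RefSeq (GRCm38.p6), on the gene's strand, with 60 bases before and 20 after the start. Capitals mark a run of at least 8 pyrimidines (C or T) within 20 bases of the start. Rps6 and Rplp2 are among the genes with the largest increases in LA cells, Rpl4 and Rpl5 had small differences there, Rpl13a is a gene that lagged behind the family in LPS cells, and Rpl7l1 was lower in LA cells.
Rps6 (chr4:86857348-86857427, minus strand): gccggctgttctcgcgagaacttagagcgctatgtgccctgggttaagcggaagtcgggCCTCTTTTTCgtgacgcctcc
Rplp2 (chr7:141447591-141447670, plus strand): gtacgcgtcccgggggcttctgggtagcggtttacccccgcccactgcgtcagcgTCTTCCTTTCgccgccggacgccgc
Rpl4 (chr9:64173327-64173406, plus strand): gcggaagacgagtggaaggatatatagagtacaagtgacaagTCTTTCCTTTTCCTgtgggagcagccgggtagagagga
Rpl5 (chr5:107900468-107900547, plus strand): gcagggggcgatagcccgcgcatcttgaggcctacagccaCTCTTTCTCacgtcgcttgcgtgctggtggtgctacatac
Rpl13a (chr7:45128726-45128805, minus strand): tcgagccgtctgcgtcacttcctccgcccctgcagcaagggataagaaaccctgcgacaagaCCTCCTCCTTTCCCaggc
Rpl7l1 (chr17:46782637-46782716, minus strand): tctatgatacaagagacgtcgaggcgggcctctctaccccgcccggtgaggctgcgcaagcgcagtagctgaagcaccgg
The run is 10 bases in Rps6 and Rplp2, 14 in Rpl4 and Rpl13a and 9 in Rpl5, whereas the longest run near the Rpl7l1 start is 3 bases. A run of at least 8 pyrimidines was found in 32 of 79 windows at starts of these genes (40.5%), against 16.3% of all 16081 windows. On both strands of the whole 300-base window, the letters CCGGAAG, which ETS factors bind, were found in 34.2% of the 79 windows against 14.5% of all, and AAGATGG, part of the YY1 motif, in 15.2% against 6.44%. A gene can have more than 1 start. A match of letters is not a binding site.

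The genes differed widely in level. In TPM, a level scaled to transcript length and library size, the 5 highest by their mean over the 10 libraries were Rps26 (3634 TPM), Rpl35 (2953), Rps2 (2584), Rplp1 (2459) and Rpl41 (2435). The median of the 77 subunit and stalk genes was 1096 TPM. At the low end, Rps19bp1 averaged 39.3 TPM, and the 4 untested paralogs Rpl39l, Rps27rt, Rpl3l and Rpl32l averaged 0.591, 0.329, 0.068 and 0.039 TPM. Rps6, the main ribosomal substrate of the S6 kinases, was listed at only 40.2 TPM and Rps15a at 75.0 TPM. Both levels may depend on how the authors assigned reads: Rps6 had estimated counts that were not whole in every library, and the values of Rps15a imply a transcript of 5061 nt. The values of Rps6 are therefore uncertain; whether it shares reads with similar sequences was not tested. In all, 21 of the 87 genes had counts that were not whole (to a tolerance of 1e-06) in at least 1 library, and for Rps6, Rpl37, Rpl37rt, Rpl7l1, Rplp2, Rps16, Rpl37a, Rpl27, Rpl34 and Rpl31 this held in all 10.

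The family as a whole took a different share of the RNA in each group. The 87 genes held 3.67% and 3.58% of all counts in LPS+LA cells, 2.98% and 2.88% in LPS+HCl cells, 2.48% and 2.32% in LPS cells, 3.81% and 4.21% in LA cells, and 3.17% and 3.16% in control cells. No 2 groups overlapped, with LA highest and LPS lowest. The share in LA cells was 1.27 times that in control cells, and the share in LPS+LA cells 1.51 times that in LPS cells, while that in LPS cells was 0.759 of control. A share depends on everything else in the library. TMM scaling, which instead assumes that most genes are not changed, gave a summed level of 36643 and 35421 CPM in LPS+LA cells, 33540 and 31884 in LPS+HCl cells, 32494 and 30636 in LPS cells, 32979 and 35956 in LA cells, and 25041 and 25453 in control cells. On that scale control cells were the lowest and stood apart from all others. The place of LPS cells below or above control thus depends on the scaling. Fewer cells of a type and less RNA per cell cannot be told apart in these bulk samples.

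**Figure D1:**
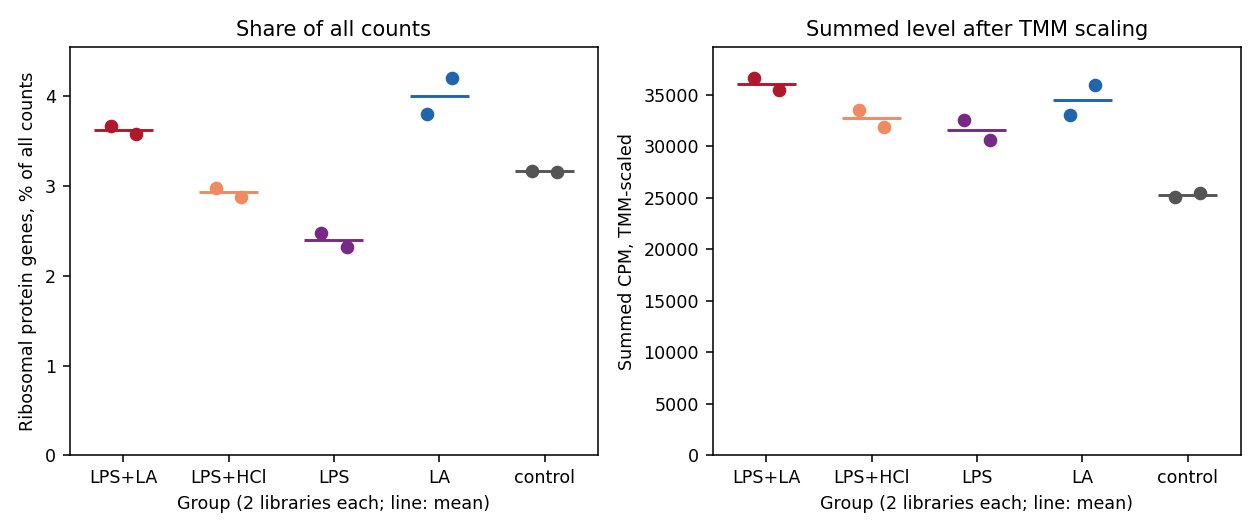
Left, the percentage of all counts that fell on the 87 ribosomal protein genes in each library; right, their summed level in CPM after TMM scaling. Points are libraries (2 per group) and lines are group means: LPS cells lie lowest on the left (2.48% and 2.32%), and control cells lie lowest on the right (25041 and 25453 CPM).

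Lactic acid alone was followed by higher RNA of nearly the whole family. By the quasi-likelihood test of edgeR, with p-values adjusted over all 12213 tested genes by the Benjamini-Hochberg method (threshold 0.05), 80 of 83 ribosomal protein genes rose in LA cells against control and 1 fell, with a median log2 fold change of 0.46; over all tested genes 20.4% rose and 17.9% fell. With total-count scaling, 78 rose and 1 fell, with a median of 0.35, against 14.1% and 25.1% of all tested genes, whose median was −0.10. The same 78 genes rose under both scalings. All 31 small subunit genes, 42 of 43 large subunit genes and all 3 stalk genes rose under TMM. The shift was shallow and broad, equal to a median fold of 1.37 under TMM, and leaving out any 1 library left between 76 and 80 genes higher.

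Several of the largest increases in LA cells were those of short mRNAs. Rps29, a zinc-binding protein of the small subunit, had 232 and 303 TMM-scaled CPM in LA cells, against 134 and 134 in control cells. The 2 groups did not overlap, and the spread was wide within LA cells only. Its log2 fold change was 0.99 ± 0.11 (SE; edgeR adjusted p = 6.17e-06), and 0.89 under total-count scaling. Rps28, another small subunit protein, had 144 and 164 CPM in LA cells, against 89.6 and 79.3 in control cells (log2 0.87 ± 0.09, edgeR adjusted p = 9.36e-08). Rpl41, a very small protein of the large subunit, had 530 and 599 CPM in LA cells, against 319 and 324 in control cells (log2 0.81 ± 0.07, edgeR adjusted p = 3.18e-09). All LA libraries lay above both control libraries for these genes.

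Rps6 had 28.3 and 41.8 CPM in LA cells, against 19.2 and 16.3 in control cells (log2 0.98 ± 0.15, edgeR adjusted p = 4.00e-05). Its 2 LA libraries differed more from each other than its 2 control libraries did. Rplp2, which with Rplp1 forms the flexible stalk that recruits translation factors, had 200 and 223 CPM in LA cells, against 141 and 114 in control cells (log2 0.73 ± 0.09). Rps19, whose human counterpart is mutated in Diamond-Blackfan anaemia, had 282 and 309 CPM in LA cells, against 183 and 183 in control cells (log2 0.69 ± 0.07). Both of these stood clear of control.

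Rpl5 and Rpl11 bind 5S ribosomal RNA and, when free, the p53 inhibitor Mdm2. They did not move by the same amount. Rpl11 rose, with 395 and 452 CPM in LA cells, against 285 and 283 in control cells (log2 0.58 ± 0.07). Rpl5 had 395 and 391 CPM in LA cells, against 372 and 336 in control cells, and its log2 fold change of 0.15 ± 0.07 did not pass the test (edgeR adjusted p = 0.0825). Without control replicate 1 it did pass, at 0.22 (adjusted p = 0.0273). The difference between Rpl5 and Rpl11 was not itself tested. Rpl4, which lines the exit tunnel of the large subunit, had 945 and 976 CPM in LA cells, against 796 and 812 in control cells (log2 0.26 ± 0.06).

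Of the paralogs, Rps27l, a p53-inducible relative of Rps27, rose, with 50.3 and 49.6 CPM in LA cells, against 34.5 and 33.4 in control cells (log2 0.56 ± 0.09). Rpl36al, a relative of Rpl36a, also rose (log2 0.50 ± 0.09). Rpl22l1, a relative of Rpl22, had only 9.53 and 7.86 CPM in LA cells, against 8.37 and 5.45 in control cells, which overlapped (log2 0.33 ± 0.21, edgeR adjusted p = 0.223). Rps19bp1 had 18.9 and 19.3 CPM in LA cells, against 14.6 and 14.4 in control cells (log2 0.40 ± 0.13, edgeR adjusted p = 0.0185), a call that was lost under total-count scaling (0.29, adjusted p = 0.0823). Without LA replicate 2, control replicate 1 or control replicate 2 its adjusted p was also above 0.05.

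Rpl7l1, the assembly factor, was the single gene of the family that fell in LA cells. It had 46.7 and 52.6 CPM in LA cells, against 60.6 and 59.5 in control cells, and its log2 fold change was −0.27 ± 0.10 (edgeR adjusted p = 0.0293), or −0.38 with total-count scaling (adjusted p = 0.00458). The groups did not overlap. Under TMM the call was lost without LA replicate 1 (adjusted p = 0.206), control replicate 1 (0.106) or control replicate 2 (0.0724).

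**Figure D2:**
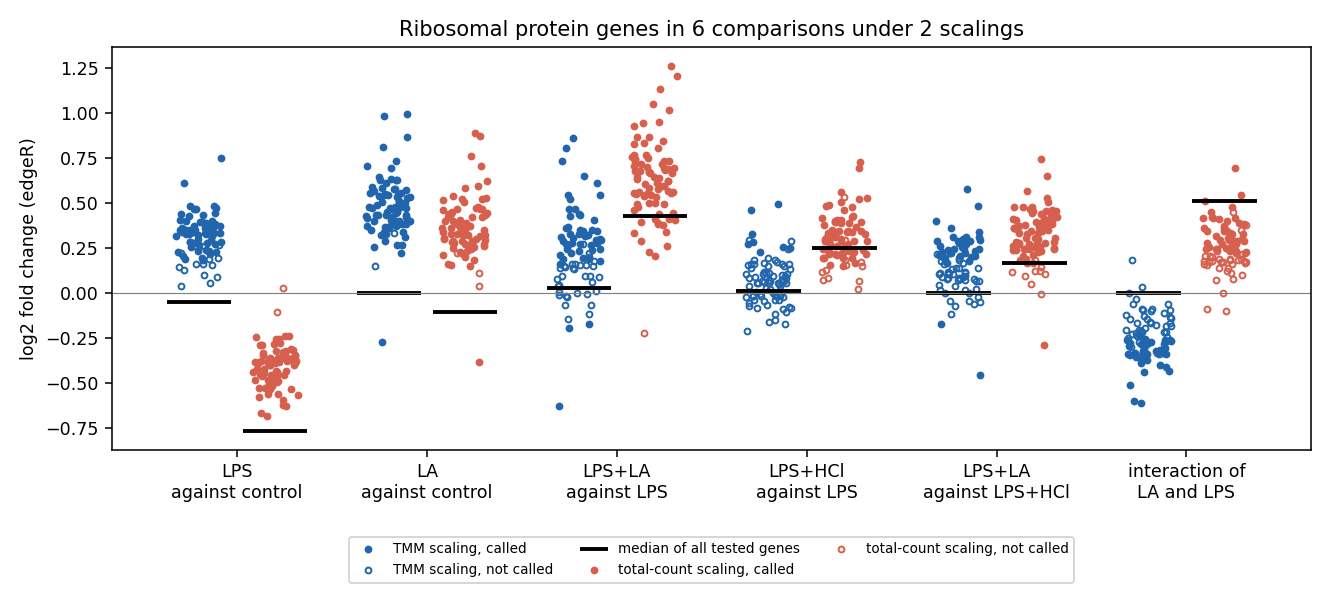
Each point is the log2 fold change (edgeR) of 1 of the 83 tested ribosomal protein genes in 6 comparisons, under TMM scaling (blue) and total-count scaling (red); filled points passed an adjusted p of 0.05, and black lines are the median of all 12213 tested genes. In LA against control both clouds lie above 0 (medians 0.46 and 0.35), whereas in LPS against control they lie on opposite sides (0.33 and −0.39).

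Transcript length moved with the LA difference. The length implied by each gene's counts and FPKM had a Spearman rho of −0.47 with the log2 fold change of LA against control over the 83 ribosomal protein genes, and −0.31 over the 12130 other tested genes, with all genes of a set measured in the same 4 libraries. Ribosomal protein genes of up to 500 nt had a median log2 of 0.54 (28 of 29 rose), those between 500 and 1000 nt 0.44 (40 of 40) and those over 1000 nt 0.40 (12 of 14). The other genes of up to 500 nt had a median of 0.50 (83 of 160 rose, 0 fell), those between 500 and 1000 nt 0.33 (343 of 795 rose, 7 fell) and those over 1000 nt −0.03 (1982 of 11175 rose, 2181 fell). Short genes outside the family were thus higher by a like median, and the distance between the family and the others was widest among long genes. Within the LA group, replicate 2 minus replicate 1 had a rho of −0.37 with length over the ribosomal protein genes, while the same difference gave 0.16 within LPS+LA, 0.31 within LPS+HCl, 0.06 within LPS and 0.09 within control. The part of length in the LA result was not tested.

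**Figure D3:**
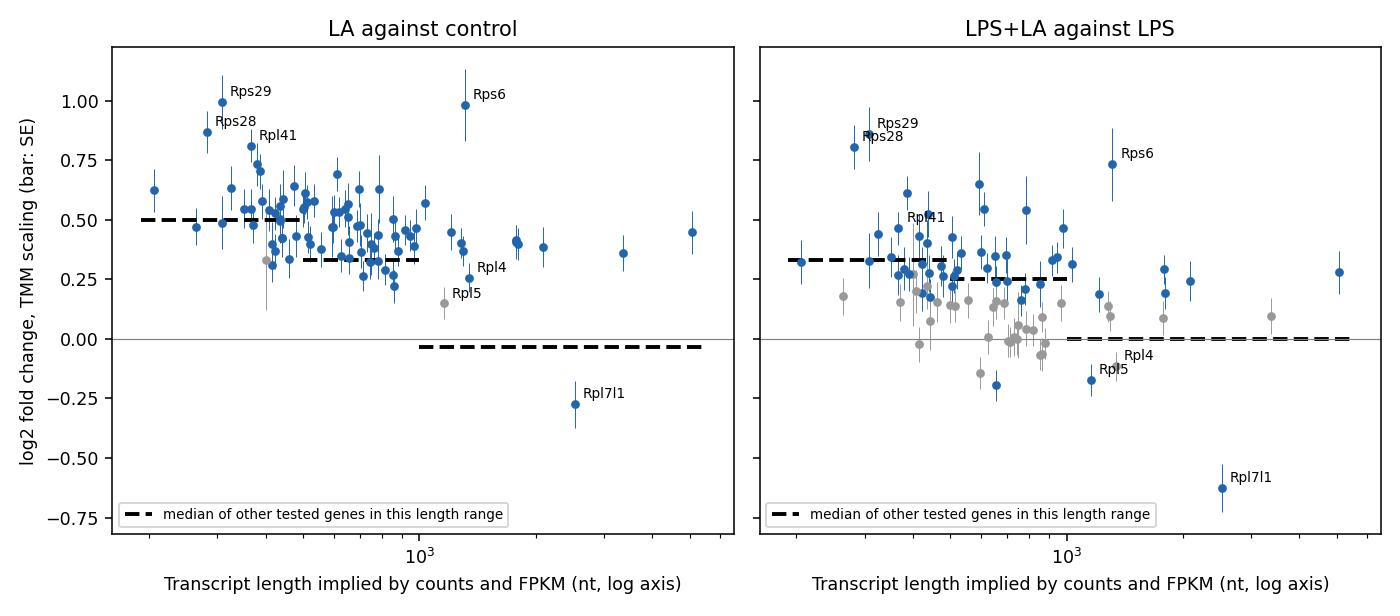
Each point is a tested ribosomal protein gene, with the transcript length implied by counts and FPKM (log axis) against its log2 fold change under TMM scaling (bars, SE; blue, called at an adjusted p of 0.05; grey, not called), for LA against control and LPS+LA against LPS. Dashed lines are medians of other tested genes in the same length range, which in LA against control lie at 0.50, 0.33 and −0.03 from short to long.

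LPS alone gave opposite directions under the 2 scalings. Under TMM, 68 of 83 genes rose in LPS cells against control and 0 fell (median log2 0.33), where 32.4% of all tested genes rose and 32.4% fell (edgeR). Under total-count scaling, 0 rose and 79 fell (median −0.39), where 14.4% of all rose and 67.9% fell, and the median of all genes was itself −0.77. Of the 83 genes, 0 were called in the same direction by the 2 scalings and 65 in opposite directions. Over all tested genes, 14.4% were called higher under both scalings and 32.4% lower under both. The share called in opposite directions was not counted over all genes. The family's median lay 0.38 above that of all tested genes, a distance that a scaling leaves in place by construction, since it moves all genes alike. Rplp0, the stalk base protein and a common reference gene for quantitative PCR, had 1223 and 1174 TMM-scaled CPM in LPS cells, against 892 and 959 in control cells (log2 0.37 ± 0.06, edgeR adjusted p = 1.80e-05), and a log2 of −0.35 under total-count scaling (adjusted p = 1.52e-05). Rpsa, a small subunit protein also known as the laminin receptor, had 1491 and 1432 CPM in LPS cells, against 1231 and 1332 in control cells (log2 0.19 ± 0.06, edgeR adjusted p = 0.00931), and −0.53 under total-count scaling. Without control replicate 1 the TMM difference of Rpsa was 0.13 and no longer passed (adjusted p = 0.0960), and without LPS replicate 1 it was 0.16 (adjusted p = 0.107).

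Lactic acid beside LPS was also followed by higher ribosomal protein RNA. In LPS+LA cells against LPS cells, 47 of 83 genes rose and 3 fell under TMM (median log2 0.22), where 29.2% of all tested genes rose and 29.7% fell. Under total-count scaling 82 rose and 0 fell (median 0.62), where 50.8% of all rose, 16.6% fell and the median of all genes was 0.43. The same 47 rose under both. Rps29 had 315 and 270 TMM-scaled CPM in LPS+LA cells, against 170 and 152 in LPS cells (log2 0.86 ± 0.11, edgeR adjusted p = 8.31e-06). Rps28 had 165 and 161 CPM in LPS+LA cells, against 99.2 and 87.4 in LPS cells (log2 0.81 ± 0.09, edgeR adjusted p = 7.34e-08). Both genes had LPS+LA libraries well above both LPS libraries. Rps6 had 37.9 and 39.3 CPM in LPS+LA cells, against 24.9 and 21.5 in LPS cells (log2 0.73 ± 0.15). Rplp1 had 675 and 625 CPM in LPS+LA cells, against 432 and 419 in LPS cells (log2 0.61 ± 0.07). Rpl37rt, a close copy of Rpl37 whose counts are not whole, had 62.5 and 46.7 CPM in LPS+LA cells, against 32.9 and 36.6 in LPS cells (log2 0.65 ± 0.13). Rpl7l1 again went the other way, with 41.7 and 52.7 CPM in LPS+LA cells, against 73.2 and 72.6 in LPS cells (log2 −0.63 ± 0.10, edgeR adjusted p = 9.71e-06), although with total-count scaling the value was −0.22 and did not pass (adjusted p = 0.0598). Over the 83 genes, log2 fold change and length had a Spearman rho of −0.38, against −0.14 over the other genes. Set beside other genes of like length under TMM, the family's median lay below theirs up to 1000 nt and above it over 1000 nt: the median log2 was 0.27 in ribosomal protein genes of up to 500 nt (20 of 29 rose) against 0.33 in the other genes, 0.16 between 500 and 1000 nt (20 of 40 rose) against 0.25, and 0.16 over 1000 nt (7 of 14 rose, 2 fell) against 0.00.

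With HCl in place of lactic acid, few genes passed the test under TMM. In LPS+HCl cells against LPS cells, 8 of 83 genes rose and 0 fell (median log2 0.07), below the 18% of all tested genes that rose and the 20.8% that fell (edgeR). Under total-count scaling 68 rose and 0 fell (median 0.30), where 37.1% of all rose, 10.8% fell and the median of all was 0.25. The same 8 genes rose under both. They again included Rps28, with 141 and 122 CPM in LPS+HCl cells, against 99.2 and 87.4 in LPS cells (log2 0.49 ± 0.09, edgeR adjusted p = 1.46e-04), and Rps29, with 234 and 209 CPM in LPS+HCl cells, against 170 and 152 in LPS cells (log2 0.46 ± 0.11, edgeR adjusted p = 0.0044). Rplp1 rose by a log2 of 0.32 ± 0.07. Rpl41 (0.27 ± 0.07) and Rpl23, another large subunit protein that can bind Mdm2 (0.29 ± 0.08), also rose, but neither passed without LPS replicate 2 or without LPS+HCl replicate 1. The median log2 of the family was 0.03 without LPS replicate 2 and 0.01 without LPS+HCl replicate 1, and fewer genes were called higher in both runs.

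Lactic acid and HCl were also compared with each other in the presence of LPS. In LPS+LA cells against LPS+HCl cells, 35 of 83 genes rose and 2 fell under TMM (median log2 0.17), where 18.4% of all tested genes rose and 22.5% fell (edgeR), and 73 rose and 1 fell under total-count scaling (median 0.33), where 32.3% rose, 15.5% fell and the median of all was 0.16. The TMM median was 0.14 without LPS+LA replicate 1. It was 0.10 without LPS+HCl replicate 2, one of the libraries with neuron transcripts. Fewer genes were called higher in both runs, each of which leaves 1 library in a group. The share of all tested genes called in these runs was not counted. The part of the neuron transcripts in this comparison was not tested. Among genes of up to 500 nt, the median log2 under TMM was 0.19 in the family against 0.24 in the other genes. Between 500 and 1000 nt it was 0.12 against 0.17, and over 1000 nt 0.11 against −0.03. Rpl7l1 kept its call, with 41.7 and 52.7 CPM in LPS+LA cells, against 64.6 and 64.8 in LPS+HCl cells (log2 −0.45 ± 0.10, edgeR adjusted p = 7.81e-04; at most 0.0483 over the alternatives). Rps6 had 37.9 and 39.3 CPM in LPS+LA cells, against 27.5 and 24.3 in LPS+HCl cells (log2 0.58 ± 0.15, adjusted p = 0.00439), and its adjusted p without LPS+HCl replicate 2 was 0.0573. Rpl37 (0.48 ± 0.14), Rps29 (0.40 ± 0.11) and Rpl38 (0.34 ± 0.09) likewise did not pass without that library, at adjusted p = 0.102, 0.0811 and 0.0949 (edgeR).

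Whether lactic acid did the same with and without LPS was tested as an interaction. Under TMM, the LA difference was smaller with LPS for 40 of 83 genes and larger for 0 (median −0.26 on the log2 scale), where 23.9% of all tested genes were lower and 20.4% higher (edgeR). Under total-count scaling it was larger for 42 and smaller for 0 (median 0.25), where 48.4% of all were higher, 10.6% lower and the median of all was 0.51. The family's median lay 0.26 below that of all tested genes, which again no scaling can alter. The TMM median was −0.20 without LPS replicate 1 and −0.18 without LA replicate 2, and fewer genes were called in both runs.

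To see how the members moved among themselves, libraries were also scaled by the summed counts of the family, which removes its shared shift. In LA cells against control, 7 of 83 genes then rose and 4 fell relative to the family, where 3.86% of all tested genes rose and 52.9% fell (edgeR). In LPS+LA against LPS, 13 rose and 10 fell, where 20% of all rose and 36.7% fell. In LPS against control the counts were 2 and 2, where 20.4% of all rose and 46.6% fell. In LPS+HCl against LPS, 4 rose and 0 fell, where 14.4% of all rose and 21.5% fell. In LPS+LA against LPS+HCl, 3 rose and 3 fell, where 9.98% of all rose and 28.6% fell. In the interaction, 0 were higher and 2 lower, where 28.9% of all were higher and 13.8% lower. A gene that did not pass on this scale is not thereby shown to have moved with the family.

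Rps29 and Rps28 took a larger part of the family whenever acid was present. Of every 1000 family counts, Rps29 held 8.59 and 7.63 in LPS+LA cells, 6.97 and 6.55 in LPS+HCl cells, 5.23 and 4.96 in LPS cells, 7.04 and 8.42 in LA cells, and 5.37 and 5.27 in control cells. The acid-treated libraries did not overlap with the others. On this scale its log2 fold change was 0.54 ± 0.10 in LA against control, 0.67 ± 0.10 in LPS+LA against LPS and 0.41 ± 0.10 in LPS+HCl against LPS, all called by edgeR. Rps28 held 4.50 and 4.55 in LPS+LA cells, 4.19 and 3.83 in LPS+HCl cells, 3.05 and 2.85 in LPS cells, 4.38 and 4.56 in LA cells, and 3.58 and 3.12 in control cells, also without overlap. Its log2 fold changes were 0.42 ± 0.10, 0.62 ± 0.10 and 0.44 ± 0.10 in the same comparisons, again all called. These are 2 of the shortest transcripts of the family, at an implied 308 and 282 nt, although Rpl38 (206 nt) and Rps27 (264 nt) are shorter. The part of length in their gain was not tested.

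Rpl7l1 held 1.14 and 1.49 of every 1000 family counts in LPS+LA cells, 1.93 and 2.03 in LPS+HCl cells, 2.25 and 2.37 in LPS cells, 1.41 and 1.46 in LA cells, and 2.42 and 2.34 in control cells. Both LA-treated groups lay below the 3 others. It fell relative to the family in LA against control (log2 −0.72 ± 0.11), LPS+LA against LPS (−0.82 ± 0.12) and LPS+LA against LPS+HCl (−0.59 ± 0.11). It stayed lower whichever library was left out. Rpl7l1 and Rpl5 have implied lengths of 2527 and 1155 nt. Of 11175 other genes over 1000 nt, 6327 fell and 431 rose on this scale in LA against control (median log2 −0.48). In LPS+LA against LPS 4298 fell and 2229 rose (−0.19), and in LPS+LA against LPS+HCl 3393 fell and 1126 rose (−0.17). The part of length was not tested. Rpl5 held 10.6 and 10.6 of every 1000 family counts in LPS+LA cells, 12.8 and 13.5 in LPS+HCl cells, 13.5 and 13.7 in LPS cells, 11.98 and 10.88 in LA cells, and 14.9 and 13.2 in control cells, with the LA-treated libraries below all others. It fell relative to the family in LA against control (−0.30 ± 0.09), a call lost without control replicate 1 (−0.21, edgeR adjusted p = 0.120), and in LPS+LA against LPS (−0.36 ± 0.09).

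Rpl24, a large subunit protein, was marked out by LPS. Rpl24 held 9.55 and 9.72 of every 1000 family counts in LPS+LA cells, 11.6 and 11.4 in LPS+HCl cells, 12.1 and 12.2 in LPS cells, 9.32 and 9.04 in LA cells, and 9.20 and 8.88 in control cells. LPS libraries were the highest, LPS+HCl libraries came next, and LPS+LA libraries lay above those of control. Relative to the family, Rpl24 rose in LPS against control by 0.42 ± 0.09 (edgeR adjusted p = 8.28e-05) and fell in LPS+LA against LPS by 0.33 ± 0.08 on the log2 scale. Rpl23 (−0.23 ± 0.09) and Rpl13a (−0.20 ± 0.08), which in human monocytes leaves the ribosome during the interferon response, fell relative to the family in LPS against control, but neither passed without LPS replicate 2 or without either control library, and Rpl13a also did not pass without LPS replicate 1 (edgeR adjusted p = 0.217) or without the low-count filter (0.0695).

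**Figure D4:**
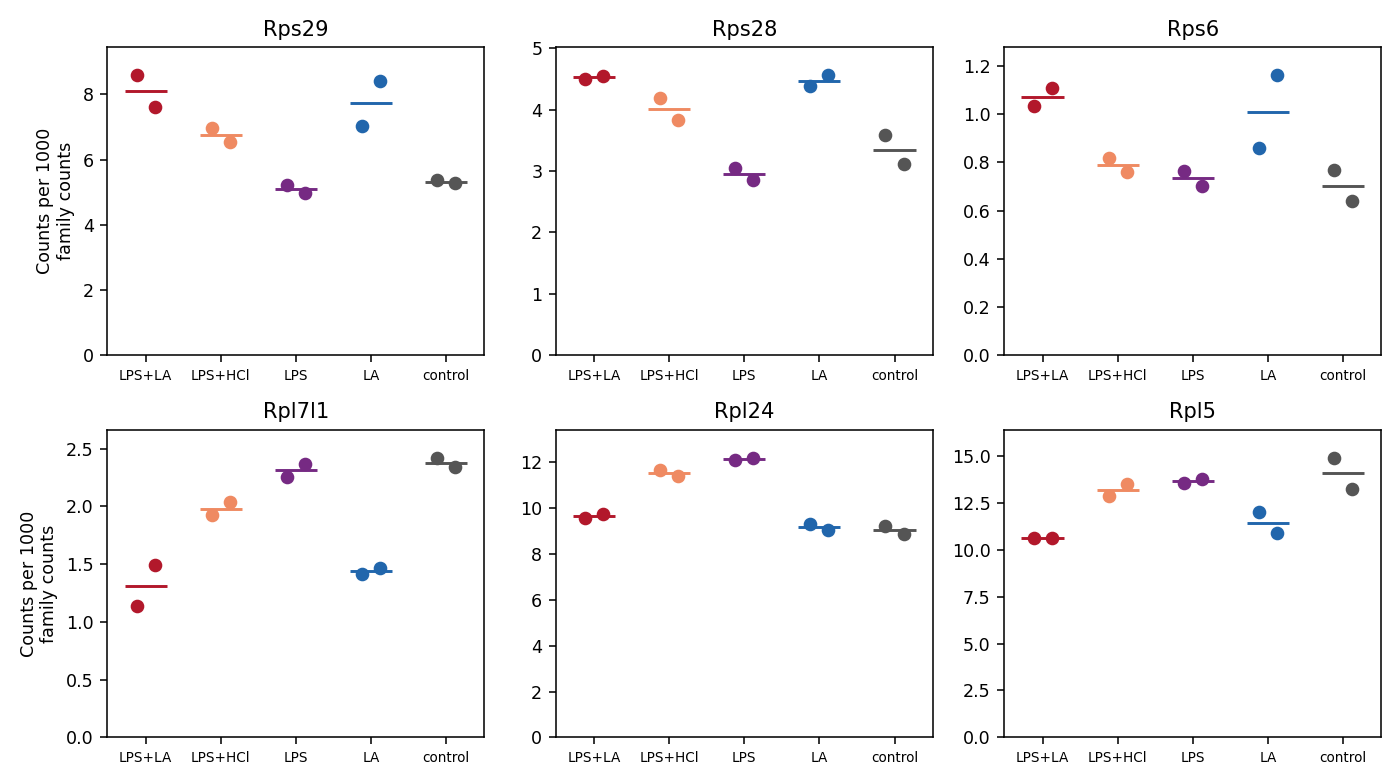
Counts per 1000 counts of the whole ribosomal protein family for 6 genes, by library (points, 2 per group) with group means (lines). Rps29 and Rps28 are higher in the 3 acid-treated groups, Rps6 is higher in LPS+LA and LA, Rpl7l1 and Rpl5 are lower in LPS+LA and LA, and Rpl24 is highest in LPS. Relative to the family, the log2 of Rps6 was 0.54 in LPS+LA against LPS. In LA against control it was 0.52, and 0.29 without LA replicate 2.

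Other genes of ribosome production were counted from lists in the same fits. Of the ribosomal proteins with other symbols, Rack1, a scaffold on the small subunit (log2 0.34 ± 0.07), and Fau, made as a fusion with a ubiquitin-like part (0.35 ± 0.07), rose in LA against control. Of 60 nucleolar assembly factors tested, 3 rose and 25 fell in LA against control under TMM, and 1 rose and 31 fell under total-count scaling. Ddx21, a helicase of ribosomal RNA processing, had 50.2 and 46.2 CPM in LA cells, against 80.3 and 75.5 in control cells (log2 −0.69 ± 0.08, edgeR adjusted p = 9.09e-07). Of 15 genes of the RNA polymerase I machinery, 1 rose and 5 fell. Polr1b, its second largest subunit, which is in both lists, had 5.76 and 6.38 CPM in LA cells, against 15.6 and 14.4 in control cells (log2 −1.30 ± 0.17). Of 8 dedicated chaperones of ribosomal proteins, 2 rose and 4 fell.

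Among mRNAs of translation, 9 of 20 other TOP mRNAs rose and 2 fell in LA against control, and 13 of 35 initiation factors rose and 4 fell. Of 78 mitochondrial ribosomal proteins, which make a separate ribosome, 24 rose and 2 fell. Of 26 genes of mTORC1 and S6 kinase signalling, 8 rose and 12 fell, and of 20 genes of ribosome quality control, 4 rose and 8 fell. These counts are under TMM, where 20.4% of all tested genes rose and 17.9% fell. Of the nucleolar factors, 32 of 60 passed in neither direction. Whether the lists differ was not tested, and they were not matched for transcript length.

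In LPS+LA against LPS under TMM, 5 of 60 assembly factors rose and 35 fell, 4 of 35 initiation factors rose and 19 fell, and 1 of 20 other TOP mRNAs rose and 8 fell, where 29.2% of all tested genes rose and 29.7% fell. Under total-count scaling, which moved all genes upward, the counts were 19 higher and 12 lower, 15 and 8, and 14 and 1, where 50.8% of all rose and 16.6% fell. Of the mitochondrial ribosomal proteins, 26 rose and 12 fell under TMM, and 57 rose and 1 fell under total-count scaling. Wdr43, an early assembly factor, had 39.8 and 37.6 CPM in LPS+LA cells, against 143 and 146 in LPS cells (log2 −1.90 ± 0.08, edgeR adjusted p = 3.63e-15), and 31.1 and 30.3 in control cells. It also fell under total-count scaling (−1.50). Larp1, the repressor of TOP mRNAs, rose in LPS against control (log2 2.20 ± 0.07) and fell in LPS+LA against LPS (−1.39 ± 0.06).

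**Figure D5:**
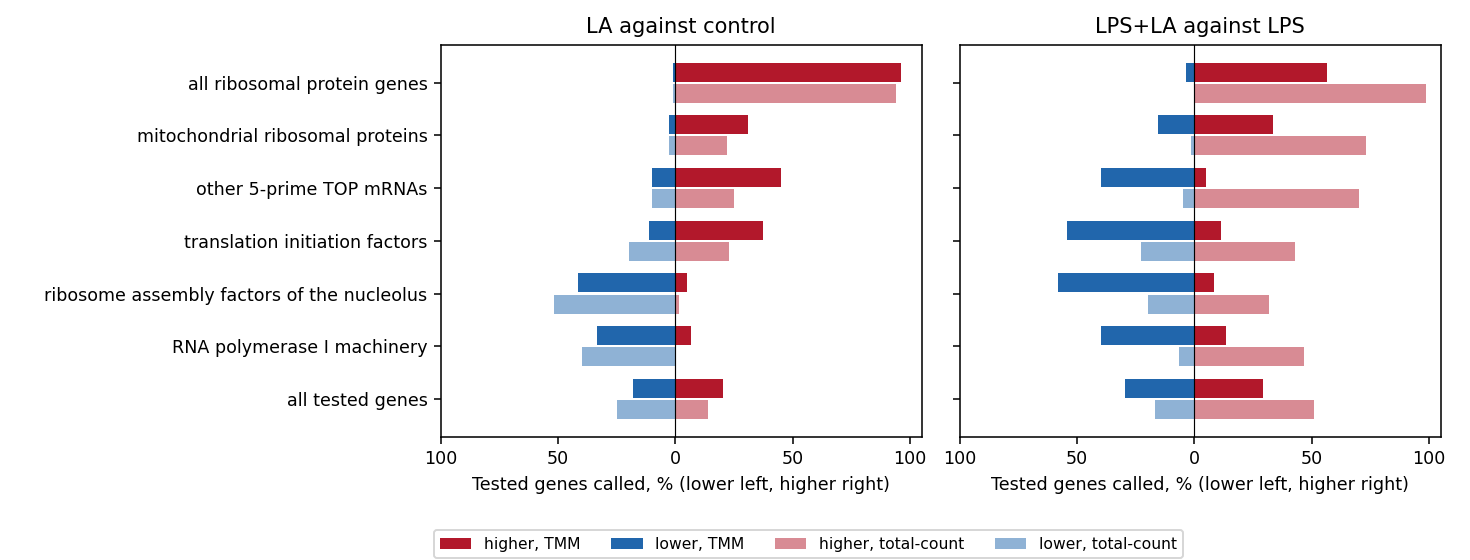
Percentage of tested genes in each list that were called higher (red, to the right) or lower (blue, to the left) in LA against control and in LPS+LA against LPS, under TMM (dark) and total-count scaling (pale). In LA against control, 80 of 83 ribosomal protein genes were higher under TMM, against 3 of 60 nucleolar assembly factors. The lists were not matched for transcript length.

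Most starts of these genes that could be examined lay in open chromatin in LPS+LA, LPS, LA and control cells, the groups with ATAC-seq. Of 67 ribosomal protein genes with an annotated start, 62 (92.5%) had an ATAC peak within the window from 250 bases before to 50 after it in each of the 12 samples, against 9099 of 12629 genes of the table in all 12. The 5 genes without a peak in any sample were Rpl32l, Rpl37rt, Rpl39l, Rpl3l and Rps27rt, which include the 4 genes with too few counts to test. No member gained or lost a peak in all 3 samples of one group against all 3 of the other: the counts were 0 gained and 0 lost for LPS+LA against LPS, LPS+LA against LA, LPS against control and LA against control, while 15, 60, 46 and 12 of all genes gained one and 20, 5, 31 and 54 lost one. The peaks at these genes had scores, as the authors' peak caller gave them, with a median between the 89.9th and the 93.7th percentile of their sample. The header of each peak list holds a code, L6 for LPS+LA and LA samples and L5 for LPS and control samples. It may stand for the sequencing lane, which the sample labels do not name. In ATAC-seq, lactic acid and whatever this code stands for cannot be told apart. A peak list does not measure how open a start is, and smaller differences were not analysed here.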

How the data were processed

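For RNA the authors deposited an estimated count for each of 16059 genes per library, with FPKM and TPM beside it; the submitters' processing notes name HISAT, Bowtie2 and the build GRCm38.p6. The sources used here do not give the tool behind the deposited estimated counts or any use of strand. For ATAC-seq the authors deposited a peak list per sample, with a score for each peak; the submitters' processing notes name BWA 0.5.9, Picard, MACS2 2.0.10 and the build mm10, and whether reads were shifted is not given.

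The counts, 6.07% of them not whole (tolerance 1e-06), were rounded. All 10 libraries were fitted together with edgeR 4.0.16 (R 4.3.3; filterByExpr with a minimum count of 10 and a total of 15; TMM; robust quasi-likelihood, two-sided; 1 term per group), and p-values were adjusted over 12213 genes. Scaling by total counts was run throughout. Scaling by the family sum was planned as an alternative for counts; tests of single genes on that scale and strata of length were chosen after seeing the data. SE is the log2 fold change divided by the root of F. Fits were tested on simulated data. Length was derived from deposited counts and FPKM.

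Named genes were, per comparison, up to 5 largest rises and falls called under both scalings and up to 5 farthest from the family, the 5 highest and lowest by TPM, a fixed panel, and up to 2 genes per other list. The members and lists were chosen with earlier results of these data known. All 87 genes matched the RefSeq table; 67 had a start in its promoter table. The list of snoRNA host genes, with none of its genes in the table, was not analysed here. A few named genes are left out of the text. DESeq2 1.42.0, its size factors, no filter, a replicate block, leaving out each library and leaving out both libraries with neuron transcripts were the alternatives. Figures used matplotlib 3.10.9.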

Additional observations from a re-analysis of the deposited data

Results flagged for a closer look

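The interaction test of lactic acid and LPS gave no direction shared by both scalings. Of 83 ribosomal protein genes, 0 were called higher under both, 0 lower under both, and 10 in opposite directions. Over all tested genes, 20.4% were called higher under both and 10.6% lower under both. The share called in opposite directions was not counted over all genes. Under TMM scaling, 40 of 83 ribosomal protein genes had a smaller LA difference with LPS, and under total-count scaling 42 had a larger one (edgeR, adjusted p under 0.05). Over all tested genes, 23.9% were lower and 20.4% higher under TMM, and 48.4% were higher and 10.6% lower under total-count scaling, so the second count is near the share of all genes. The direction follows the scaling.

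Relative to the family sum, Rpl24 was called in the same test. It had a log2 of −0.36 ± 0.12 (edgeR adjusted p = 0.018, up to 0.0687 over its alternatives), with 9.55 and 9.72 of every 1000 family counts in LPS+LA cells, 12.1 and 12.2 in LPS cells, 9.32 and 9.04 in LA cells, and 9.20 and 8.88 in control cells.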

How the results depend on the processing

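Counts of ribosomal protein genes higher under TMM (68 in LPS, 80 in LA, 47 in LPS+LA against LPS, 8 in LPS+HCl, 35 in LPS+LA against LPS+HCl) and lower in the interaction (40) moved most with scaling. With total-count scaling they were 0 in LPS (79 lower) and 0 lower in the interaction (42 higher), both turned round, and 82 in LPS+LA, 68 in LPS+HCl and 73 in LPS+LA against LPS+HCl; LA kept 78. With family-sum scaling, which removes the shared shift by construction, they were 2, 7, 13, 4 and 3, and 2 lower in the interaction. Rplp0 and Rpsa turned round in LPS against control under total-count scaling, at −0.35 and −0.53. Leaving out 1 library gave 48 to 72 in LPS, 76 to 80 in LA, 32 to 54 in LPS+LA against LPS, 3 to 12 in LPS+HCl, 2 to 37 in LPS+LA against LPS+HCl and 14 to 54 in the interaction; the highest and lowest depend on fewer libraries by construction. Without both libraries with neuron transcripts the count in LPS+LA against LPS+HCl was 3; the cause was not tested. DESeq2's test, its size factors and no filter kept every count within 1.5 times. Leaving out a library leaves 1 in its group, which alters the test for every gene. The share of all tested genes called in such runs was not counted.

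For single genes under TMM, 623 alternative values kept direction and side of the threshold, 29 lost the call, 2 gained one and 2 turned round; relative to the family, 285 kept it and 53 lost it. Many of these runs left out a library of a group outside the comparison, which hardly moves a fold change by construction. The number of values kept is therefore not a measure of how firm the calls are. Starts with a peak numbered 61 or 62 in every alternative.

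With a replicate block the counts were 68, 80, 46, 8 and 34, and 38 in the interaction. Whether the replicate numbers pair the libraries is not stated. Deviations of same-numbered libraries correlated between −0.43 (LPS+HCl and control, the groups that hold the libraries with neuron transcripts) and 0.04. Each group has only 2 libraries, so these values cannot decide it. With 2 libraries a group, small differences in genes with few counts, such as Rpl22l1, were not detectable at this depth.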

Other observations

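Outside the symbol rule, 2 rows named as pseudogenes of ribosomal proteins rose in LA against control and in LPS+LA against LPS. Rpl31-ps12 had 44.5 and 38.4 TMM-scaled CPM in LPS+LA cells, 31.3 and 27.8 in LPS+HCl cells, 13.7 and 15.1 in LPS cells, 33.7 and 44.2 in LA cells, and 14.996 and 13.592 in control cells. Its log2 fold change was 1.45 ± 0.13 in LA against control and 1.53 ± 0.14 in LPS+LA against LPS (edgeR adjusted p = 1.14e-08 and 1.81e-09). Rpl34-ps1 had log2 fold changes of 1.03 ± 0.27 and 1.26 ± 0.29 in the same comparisons (edgeR adjusted p = 0.0116 and 0.00273). Relative to the family sum, Rpl31-ps12 rose in both (0.99 ± 0.13 and 1.33 ± 0.14, edgeR adjusted p = 6.46e-07 and 3.56e-09), while Rpl34-ps1 rose in LPS+LA against LPS (1.07 ± 0.26, adjusted p = 0.00236) and did not pass in LA against control (0.58 ± 0.25, adjusted p = 0.0570). Their counts are not whole, and whether they share reads with similar sequences was not tested. These 2 rows were chosen after their values were seen.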
